A study of Homo sapiens with 14 samples.

Results

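The regions described here are the last 200 bases, up to the listed 3′ end, of transcripts of 1001 to 6000 bases in a PARS-seq dataset of cells labelled HepG2, the name of an established human hepatocellular carcinoma line. PARS-seq (parallel analysis of RNA structure) digests folded RNA in vitro with an enzyme that prefers single-stranded RNA, S1 nuclease (S1), or an enzyme that prefers double-stranded RNA, RNase V1 (V1), and counts the reads that start at each base. The tables of read starts list 25132 transcripts in any of the 8 libraries and 4722 in all 8, and 3694 of the 4722 have a length in this range, each giving a window of 200 bases. Their lengths run from 1004 to 5987 bases with a median of 2384. Exactly these 4722 are what the first S1 control replicate lists, and so its table alone set which transcripts could be used. Values per transcript are given for the 2433 windows whose transcript had, outside the window, a mean of at least 1 read start per base in every library, here called covered.

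Poly-A RNA was taken from cells that carried a scrambled siRNA (control) or siRNA against ADAR1 (KD). The study's methods call these cells stably transfected, and also give a silencing time counted in hours. ADAR1, encoded by ADAR, deaminates adenosine to inosine in double-stranded RNA. Of each condition, 2 replicates were digested with S1 and 2 with V1, which gives 8 libraries in 4 groups. The study's methods call the replicates biological, and no label ties a replicate number to a shared culture or day, so that p-values measure the spread between these samples. The libraries held between 88565995 and 197781370 read starts on the 4722 transcripts, and the most covered of these transcripts took between 26.0 and 59.3% of them. In the accompanying RNA-seq, with 1 library per condition, ADAR had 54.8 RPKM in control and 15.4 in KD, and in Ribo-seq it had 43.6 and 8.73 RPKM in the replicates numbered 1 and 55.5 and 44.0 in those numbered 2. In bulk samples, less RNA per cell and fewer cells with the RNA cannot be told apart. The genes of secreted liver proteins ALB, AFP, APOA1, APOB, TTR, SERPINA1, TF and FGB stood at no more than 0.0821 RPKM in any of these 6 libraries, while COL1A1, a collagen gene of connective tissue cells, had between 9.75 and 54.7 RPKM. The defining liver markers were thus at or near 0 in the RNA-seq and Ribo-seq samples labelled HepG2. PTPRC and PECAM1, markers of blood and vessel cells, had at most 0.0892 RPKM.

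The 3′ end of most mRNAs is made by cleavage of a longer precursor a short way downstream of a polyadenylation hexamer, usually AAUAAA and less often AUUAAA, followed by the addition of a poly(A) tail. The bases before the tail belong as a rule to the 3′ UTR, where RNA-binding proteins and microRNAs act on stability, location and translation. In PARS-seq, the ratio of V1 to S1 cuts at a base is read as its tendency to be paired, and a read that starts close to a transcript's end comes from a short fragment.

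Sequence was assigned to 1373 of the 1666 windows whose transcript has a gene symbol in the sources used here, and 864 of these windows, 35.5% of the 2433, were covered. The assignment placed the read starts of the bases before the window on GRCh37, so that no read start of the window itself entered it. On the transcript strand, the hexamer AATAAA, in DNA letters, was found in 630 of the 864 windows (72.9%) and ATTAAA in 242 (28.0%), and 754 (87.3%) held either. In the 200 bases just before the window of the same transcripts, the shares were 15.0% and 12.4%. The last base of the last AATAAA lay at a median of 35 bases from the listed end, with quartiles at 28 and 44, and in 571 windows within the last 60 bases. The stretches below carry the hexamer, in capitals, with the 12 bases on each side, for the 9 windows among the genes described here that had at least 20 read starts in the hexamer, chosen after their values were seen. The hexamers of TPI1 and COMTD1 ended 146 and 86 bases from the listed end, and so lay outside the last 60 bases. They are shown because S1 and V1 read starts differed over these bases. All lie on GRCh37.
PIGS (chr17:26880421-26880450, minus strand): tagtaggctcttAATAAAcactggctgaat
PGAM1 (chr10:99193165-99193194, plus strand): ccatatcagtatAATAAAggagtgatgtgc
ALDOA (chr16:30081701-30081730, plus strand): ggcacactgccaAATAAAcagctatttaag
COMTD1 (chr10:76993736-76993765, minus strand): tttaaattcgaaAATAAAgtggggctggga
TPI1 (chr12:6979963-6979992, plus strand): cccatgtgagggAATAAAcctggcactagg
BABAM1 (chr19:17390112-17390141, plus strand): ttttgccatcaaAATAAAaatttgagactc
PIGT (chr20:44054848-44054877, plus strand): tactgtttgtggAATAAAaacggctgtttc
HSP90AB1 (chr6:44221583-44221612, plus strand): taaagtatgcaaAATAAAgaatatgccgtt
EEF1G (chr11:62327078-62327107, minus strand): gagatgggggtcATTAAAggaaactgaaca

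In 8 of these 9 stretches the hexamer had more S1 than V1 read starts, as counts not scaled to the rest. The counts of TPI1 were close, with 24 S1 and 20 V1 read starts. In TPI1, PIGT, HSP90AB1 and PIGS the libraries of the 2 enzymes overlapped. In PIGS, a subunit of the complex that attaches GPI anchors to proteins, the 6 bases had 19 and 110 S1 read starts (control) and 76 and 137 (KD), against 11 and 25 V1 read starts (control) and 28 and 42 (KD). In ALDOA, the glycolytic aldolase, they had 29, 61, 9 and 16 S1 read starts against 2, 4, 2 and 1 V1 read starts, in the same order. In BABAM1, a subunit of the BRCA1-A complex, 34 S1 read starts stood against 1 V1 read start over the 4 libraries of each enzyme. EEF1G, a subunit of translation elongation factor 1 with the variant hexamer, went the other way, with 146 S1 and 458 V1 read starts, and each of its V1 libraries was above each of its S1 libraries.

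The very end of the windows held no read starts. Over all 3694 members and 8 libraries, the read start closest to the listed end lay 14 bases from it, and so the last 13 bases were empty in every library. A read start within the last 20 bases was found in 145 members (3.93%), with 1777 read starts in all. Among covered windows, the read start nearest to the end lay at a median of 38 to 44 bases from the end in the S1 libraries and of 42 to 46 in the V1 libraries. Of the covered windows, 29 had no read start in any library, and 2302 had at least 1 in all 8.

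Where the listed end lay relative to the annotated end varied between transcripts. In the 864 placed windows, the listed end was a median of 15 bases past the nearest end of a GENCODE transcript of the gene, with quartiles at 5 and 21. It was 1 to 40 bases past in 634 windows (73.4%), at the annotated end in 92, before it in 68 and more than 40 bases past it in 70. The median distance of the last read start was 31.5 to 40 bases over the 8 libraries in the windows that ended at the annotated end, 39 to 47 in those that ended 11 to 20 bases past it, and 47.5 to 55 in those that ended more than 40 bases past it. The last read start thus lay farther from the listed end in the last of these classes than in the first in all 8 libraries, and even in windows that ended at the annotated end it lay over 30 bases inside.

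**Figure D1:**
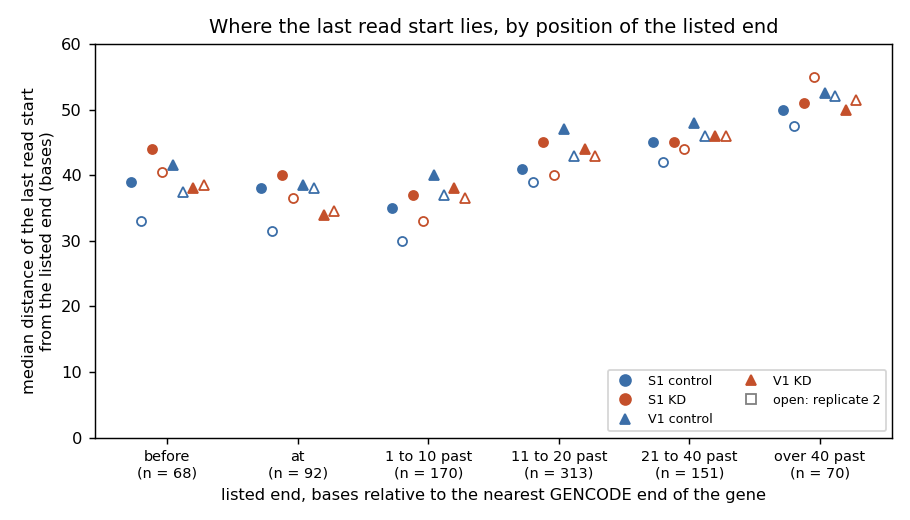
Median distance of the last read start from the listed 3′ end, in bases (y axis), by where the listed end lies relative to the nearest GENCODE end of the gene (x axis, number of windows in brackets). Each point is 1 library (circles S1, triangles V1; blue control, orange KD; open symbols replicate 2), and the points lie between 30 and 55 bases, highest in windows that ended more than 40 bases past the annotated end.

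The windows had fewer read starts per base than the rest of their transcripts with both enzymes. The 2433 windows hold 7.95% of the bases of their transcripts and between 3.39 and 6.53% of the read starts. The median over transcripts of the log2 ratio of read-start density in the window to that in the rest, computed with 0.5 read starts added to each, was -2.95 and -1.99 for S1 control (replicates 1 and 2, in this order throughout) and -2.56 and -1.90 for S1 KD. For V1 control it was -2.96 and -2.03, for V1 KD -2.57 and -1.99, and so the median window was between 3.73 and 7.77-fold below the rest. All 8 medians were below 0, with a two-sided exact sign-flip test over the libraries at p = 0.00781, the smallest this test can give. It counts same-numbered S1 and V1 libraries, whose medians were close, as separate. Over 4 such pairs a sign-flip test cannot give a p below 0.125. The same limit applies to the later tests over 8 libraries. A median below 0 was not particular to the end. The middle 200 bases of the rest, against its other bases, had -0.96 to -0.71 with S1 and -0.64 to -0.49 with V1. In single libraries, 81.4 to 93.6% of the windows were below the rest. The density was below in all 8 libraries in 1853 windows (76.2%) and above in all 8 in 102 (4.19%).

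**Figure D2:**
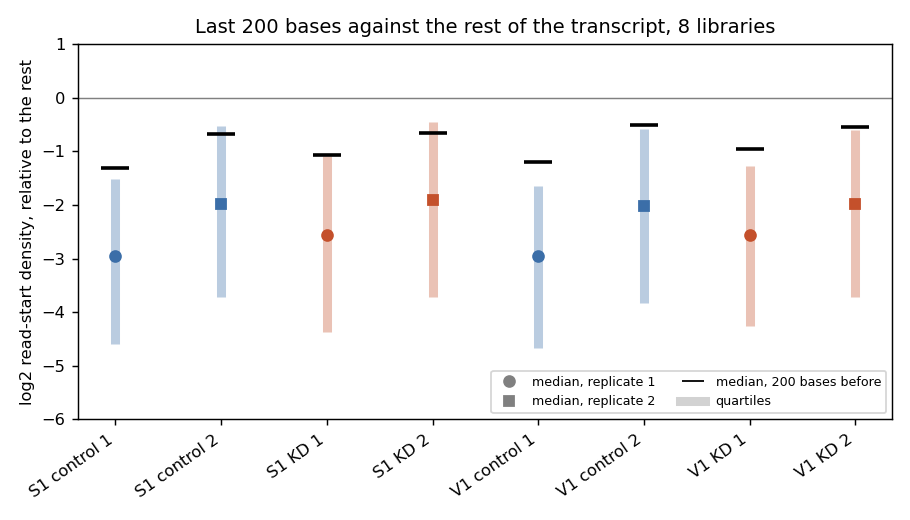
Log2 ratio of read-start density in the last 200 bases to that in the rest of the same transcript (y axis) in each of the 8 libraries (x axis), over 2433 transcripts. Points are medians (circles replicate 1, squares replicate 2), bars span the quartiles and black dashes are medians of the 200 bases before the window. The medians of the last 200 bases lie between -2.96 and -1.90, below the dashes in each library, and within each group replicate 2 lies above replicate 1.

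No difference in the depth of this dip was detected between S1 and V1. The mean of the medians was -2.47 ± 0.676 (SD, n = 2) in S1 control, -2.23 ± 0.469 (SD, n = 2) in S1 KD, -2.49 ± 0.658 (SD, n = 2) in V1 control and -2.28 ± 0.412 (SD, n = 2) in V1 KD. V1 minus S1 was -0.04, with p = 0.714 in a two-sided exact permutation test of 4 against 4 libraries, and leaving out each library in turn gave differences from -0.23 to 0.16. The V1 median was the lower one in each of the 4 same-numbered pairs, a number of pairs for which an exact sign-flip test cannot give a p below 0.125. Across transcripts, the ratios correlated between libraries of the same enzyme with Pearson's r from 0.963 to 0.981 and between an S1 and a V1 library from 0.898 to 0.924, as a description over 2433 transcripts that share libraries.

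The ratio differed between the replicate numbers within every group. Replicate 2 exceeded replicate 1 by 0.96 in S1 control, 0.66 in S1 KD, 0.93 in V1 control and 0.58 in V1 KD on the log2 scale, which is 1.50 to 1.94-fold. With 4 groups, the smallest two-sided p of an exact sign-flip test is 0.125, which was the p found. Within number 1, KD minus control was 0.38 with S1 and 0.39 with V1, and within number 2 it was 0.09 and 0.04. Over all libraries KD minus control was 0.24 with S1 and 0.21 with V1, and each had p = 0.667 in an exact permutation test, which cannot go below 0.333 with 2 against 2. The direction turned when control replicate 1 was left out, to -0.24 with S1 and -0.25 with V1, and when KD replicate 2 was left out, to -0.10 and -0.08. The part of the replicate numbers in the difference between conditions was not tested.

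The density rose steeply over the window. In the last 50 bases, where many windows had no read start and the pseudocount sets part of the value, the median log2 density relative to the rest was between -6.64 and -5.39 in the S1 libraries and between -7.06 and -6.06 in the V1 libraries. It was between -3.76 and -2.65 with S1 and -3.77 and -2.73 with V1 at 51 to 100 bases from the end, and between -2.50 and -1.61 and between -2.31 and -1.46 at 151 to 200 bases. It rose further beyond the window, and at 551 to 600 bases it was between -1.65 and -1.33 with S1 and between -1.26 and -0.94 with V1. The mean density over transcripts was higher than the median. It was 2.74 to 9.28% of the rest in the last 50 bases, 78.7 to 162% with S1 and 73.2 to 136% with V1 at 151 to 200 bases, and 90.1 to 117% at 551 to 600 bases. It first reached the level of the rest 111 to 121 bases from the end in the replicates numbered 2 and 171 to 291 bases from the end in those numbered 1.

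**Figure D3:**
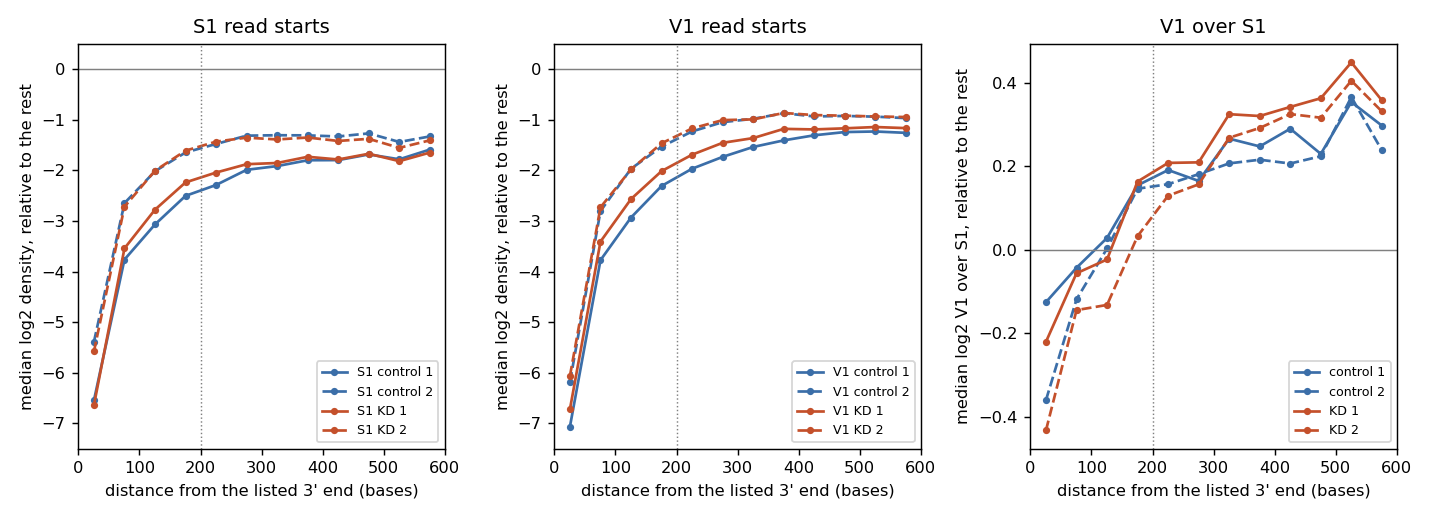
Median log2 read-start density in bins of 50 bases, relative to the rest of the transcript (y axes), for S1, V1 and the difference V1 minus S1, against the distance from the listed 3′ end in bases (x axis; dotted line, start of the window). Solid lines are replicate 1 and dashed lines replicate 2, blue control and orange KD. Densities in the last 50 bases lie below -5, and V1 over S1 is below 0 there and between 0.24 and 0.36 at 551 to 600 bases in this median, where the mean density of V1 was below that of S1.

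The ratio of V1 to S1 changed along the same bases. The median over transcripts of log2 V1 over S1, relative to the rest, was between -0.43 and -0.13 in the last 50 bases, between -0.14 and -0.04 at 51 to 100 bases, between -0.13 and 0.03 at 101 to 150 bases and between 0.03 and 0.16 at 151 to 200 bases. In the last 50 bases part of this value comes from the pseudocount, since the last 10 bases, which were empty, gave -0.44 to 0.13. By mean density, V1 was below S1 in the last 50 bases in all 4 pairs, at 2.74 to 6.23% of the rest against 4.20 to 9.28%. From 201 to 250 bases it was between 0.13 and 0.21, and so this median was higher there than within 100 bases of the end in all 4 same-numbered pairs of libraries. The mean density did not share its sign. Relative to the rest, the mean at 201 to 250 bases was 83.4 to 134% with V1 and 91.2 to 147% with S1, and at 551 to 600 bases it was 90.1 to 106% with V1 and 101 to 117% with S1, below S1 in all 4 pairs in both places. At 151 to 200 bases the mean was 73.2 to 136% with V1 and 78.7 to 162% with S1, and V1 was again below S1 in all 4 pairs. At these distances the sign of V1 over S1 thus depended on whether the median or the mean over transcripts was taken.

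Other windows of the same transcripts differed from the last 200 bases. The 200 bases just before the window, against the bases before them, had medians of -1.41 to -0.72 with S1 and -1.28 to -0.57 with V1, higher than the last 200 bases by 1.43 on average and in all 8 libraries (exact sign-flip test, p = 0.00781). The first 100 bases were lower still, at -4.60 to -4.23 with S1 and -3.67 to -3.30 with V1, and below the last 200 bases by 1.49 on average, again in all 8 libraries (difference -1.49, exact sign-flip test, p = 0.00781). At the first 100 bases V1 exceeded S1 by 0.85 (exact permutation test, p = 0.0286, the smallest for 4 against 4), and so it did in the middle 200 bases of the rest, by 0.29 (exact permutation test, p = 0.0286). At the last 200 bases such a difference was not detected, as given above, nor was it in the 200 bases just before them, where V1 minus S1 was 0.14 (exact permutation test, p = 0.514) though the V1 median was above the S1 median in all 4 same-numbered pairs. The median of V1 over S1 per transcript was between -0.03 and 0.02 in these pairs. The test of this difference between windows, over 4 pairs, cannot give a p below 0.125: V1 over S1 was higher by 0.65 at the first 100 bases and by 0.33 in the middle than at the last 200 bases (exact sign-flip test, p = 0.125 for each), in 4 of 4 pairs.

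The dip also varied with transcript length. Among the members, the medians over the 8 libraries ran from -2.82 to -1.82 in 988 transcripts of up to 2000 bases and from -3.47 to -2.16 in 304 of over 4000 bases. Between these, the 741 transcripts up to 1000 bases longer than the first class had -2.99 to -1.92 with S1 and the 400 up to 4000 bases had -2.86 to -1.72. In all 8 libraries the dip was shallower in these 400 than in the 741, and so it did not deepen steadily with length within the range. Outside the range, the last 200 bases of 418 covered transcripts of 401 to 1000 bases had medians of -1.90 to -1.26, higher than the members by 0.81 (exact sign-flip test over 8 libraries, p = 0.00781), and those of 127 covered transcripts of over 6000 bases had -3.81 to -2.55, lower by 0.71 (difference -0.71, exact sign-flip test, p = 0.00781). Both tests count same-numbered S1 and V1 libraries as separate. Next to the limits, the shortest covered member (1004 bases) had a median of -2.59 over the libraries and a transcript of 1000 bases just outside had -1.35, while the longest (5963 bases) had -6.94 and one of 6001 bases -9.92.

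The balance of the enzymes varied widely from window to window around a median close to 0. For each same-numbered pair of libraries, the log2 ratio of V1 to S1 in the window minus that in the rest had a median of -0.04 and -0.05 in the control pairs and of -0.07 and -0.13 in the KD pairs, with 45.3 to 48.7% of the windows above 0. The mean over the pairs was -0.07 (exact sign-flip test over 4 pairs, p = 0.125, the smallest possible). This mean was -0.11 without the highest base, and turned to 0.01 with at least 5 read starts per base in the rest. Its sign also turned with read starts summed over transcripts, as given below. The lower quartile lay between -0.83 and -0.72 and the upper between 0.54 and 0.67 over the pairs. The values repeated between pairs, with Pearson's r from 0.709 to 0.769 over 2433 windows, of which 750 (30.8%) were above 0 in all 4 pairs and 870 (35.8%) below 0 in all 4.

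With limma over the 4 pairs and Benjamini-Hochberg adjustment over all 2978 transcripts tested, 1368 of the 2433 windows (56.2%) differed from their rest at an adjusted p under 0.05, with 620 higher and 748 lower in V1 over S1. The share called over all transcripts tested was 57.3%. Fitted over members alone, the share was 55.1% for the last 200 bases, 68.4% for the 200 bases before them and 74.0% for the middle 200 bases of the rest, where 1146 were higher and 655 lower. The values spread alike in the 3 places, with an interquartile range of 1.28 at the end, 1.31 just before it and 1.29 in the middle, while the median SE was larger at the end, at 0.149 against 0.123 and 0.124. The most covered base of a window held a median of 14.4% of its S1 read starts and 11.3% of its V1 read starts, in windows with at least 100 read starts, and the same base was highest with both enzymes in 14 of 1967 windows (0.712%).

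At the hexamer, S1 read starts were more frequent than V1 read starts, each relative to the rest of the transcript. Over the 571 windows with AATAAA in the last 60 bases, with a base capped at 20 times the rest, the mean density over the 6 bases was 9.88 to 30.7% of the rest in the S1 libraries and 2.37 to 6.45% in the V1 libraries. In the 12 bases before it, the ranges were 8.55 to 20.4% and 9.40 to 24.1%, and so the enzymes overlapped there. On the log2 scale, the hexamer over these 12 bases was 0.21 and 0.35 in the S1 control libraries, 0.47 and 0.67 in the S1 KD libraries, and between -1.99 and -1.89 in the 4 V1 libraries. V1 minus S1 was -2.36 (exact permutation test of 4 against 4 libraries, p = 0.0286, the smallest possible), with -2.56 to -2.20 in the 4 pairs. In 135 of these windows the hexamer had no read start in any library, and among the 137 with at least 20, S1 read starts outnumbered V1 read starts in 117 (85.4%) and V1 read starts outnumbered S1 read starts in 19. The KD libraries were above the control libraries by 0.29 with S1 and by 0.02 with V1, and 2 against 2 cannot reach an exact p below 0.333.

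**Figure D4:**
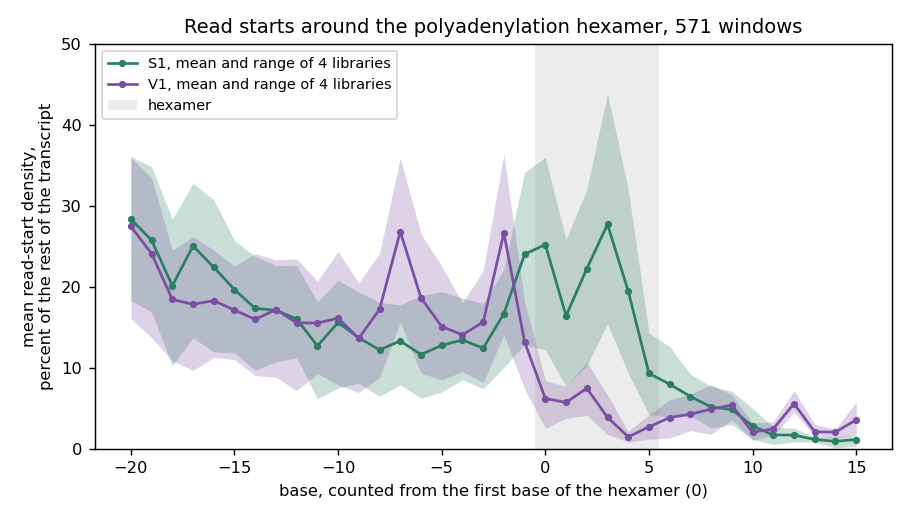
Mean read-start density at each base, in percent of the rest of the transcript (y axis), against the position from the first base of the last AATAAA (x axis, 0 is its first base; grey, the hexamer) in 571 windows. Lines are means and bands the range over the 4 libraries of an enzyme; S1 (green) is above V1 (purple) over the hexamer and the 2 overlap in most of the 12 bases before it.

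A difference in the same direction was found at other A-rich hexamers, in the last 60 bases and farther inside. For ATTAAA in the last 60 bases, with no AATAAA within 6 bases, V1 minus S1 was -2.25 over 166 windows. For AATAAA at 61 to 195 bases from the end it was -1.92 over 139 copies, and the other hexamers of 5 A and 1 T (the T at any place but the third) gave -1.43 in the last 60 bases, with -1.58 to -1.23 in the 4 pairs. Each of these had p = 0.0286 in the exact permutation test of 4 against 4 libraries, the smallest possible. In the last 60 bases the difference was larger at AATAAA than at these other hexamers in all 4 pairs, and the gap between them was not tested. At 201 to 900 bases, AATAAA had -2.09 over 398 copies and the other hexamers -1.88. These bases served to place the sequences by the cutting preference of each enzyme, and their values are given as a description.

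Windows with a higher GC content had more read starts. The median GC content of the 864 windows was 37.8%. In the lowest of 4 classes of GC content the log2 density relative to the rest had medians of -3.29 to -2.06 over the 8 libraries, and in the highest class of -2.17 to -0.78. Pearson's r of GC content with this ratio was 0.164 to 0.223 across windows, as a description, and with V1 over S1 it was -0.04 to 0.08. The 51 windows that held a stop codon had medians of -2.07 to -0.91, with V1 over S1 between -0.37 and -0.19, and the 110 without AATAAA or ATTAAA had -3.58 to -2.37, with V1 over S1 between -0.24 and -0.11.

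Some named windows had far more V1 than S1 cuts relative to their transcript. The window of COQ2, a prenyltransferase of coenzyme Q synthesis (chr4:84184961-84185160, GRCh37, minus strand, beginning 192 bases past the stop codon), had 61 and 83 S1 read starts with the scrambled siRNA against 85 and 65 after knockdown, and 90 and 157 V1 read starts against 172 and 214. Its rest, scaled to 200 bases, had 948 to 1551 read starts in the S1 libraries and 209 to 571 in the V1 libraries. The window thus stood above the rest by 2.98 ± 0.444 (SD over 4 pairs) in log2 V1 over S1, or 7.91-fold (limma, SE 0.21, adjusted p = 0.00119), with 61.6% of its V1 read starts at the base 119 from the end. It was 0.83 without the highest base and 1.00 against the 200 bases before the window, still past the test in both. TPI1, the glycolytic triosephosphate isomerase (chr12:6979926-6980125, plus strand, 379 bases past the stop codon), had 136 to 262 S1 read starts and 746 to 1181 V1 read starts in its window, and was higher by 2.50 ± 0.342 (limma, adjusted p = 0.00104), or by 1.13 without the highest base and 1.17 against the 200 bases before the window. COMTD1 was higher by 2.66 ± 0.158 and ARF5, a small GTPase of Golgi traffic, by 2.43 ± 0.303 (limma, adjusted p = 0.000809 and 0.000921). When the 200 bases before the window stood for the rest, ARF5 turned to -0.76 and COMTD1 rose to 4.43. DERA, deoxyribose-phosphate aldolase, was higher by 2.73 ± 1.36 from no more than 13 read starts in a library (limma, adjusted p = 0.0148).

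Other windows had far more S1 cuts. In SDF4, a calcium-binding protein of the Golgi (chr1:1152259-1152458, minus strand, 434 bases past the stop codon), the S1 read starts of the window numbered 3685 and 5581 (control) and 2333 and 3405 (KD), and the V1 read starts 214 and 328 (control) and 188 and 266 (KD). Every S1 library was above every V1 library. The listed end of SDF4 lay 52 bases past the nearest annotated end of the gene, against 16 in COQ2, 13 in TPI1 and 11 in BABAM1. The rest had 1896 to 4336 read starts per 200 bases with S1 and 1908 to 3156 with V1, and the window stood at -3.77 ± 0.186 (limma, adjusted p = 0.000788). ITPA, which hydrolyses inosine triphosphate, was at -2.84 ± 0.0454 and FAM98A at -2.83 ± 0.283 (limma, adjusted p = 0.000809 for each), with 59.5% of the S1 read starts of ITPA at the base 176 from the end, without which ITPA was at -1.43. In BABAM1 (chr19:17389963-17390162, plus strand, 106 bases past the stop codon), at -2.75 ± 0.162 (limma, adjusted p = 0.000809), 85.0% of the S1 read starts lay at the base 149 from the end, and without the highest base the value was 0.05. PHF10, a subunit of a chromatin-remodelling complex, had the lowest value, -7.97 ± 2.31 (limma, adjusted p = 0.00197). Its window had 20 to 177 S1 and 2 to 18 V1 read starts, while its rest had 225 to 357 read starts per 200 bases with S1 and 4500 to 6375 with V1.

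**Figure D5:**
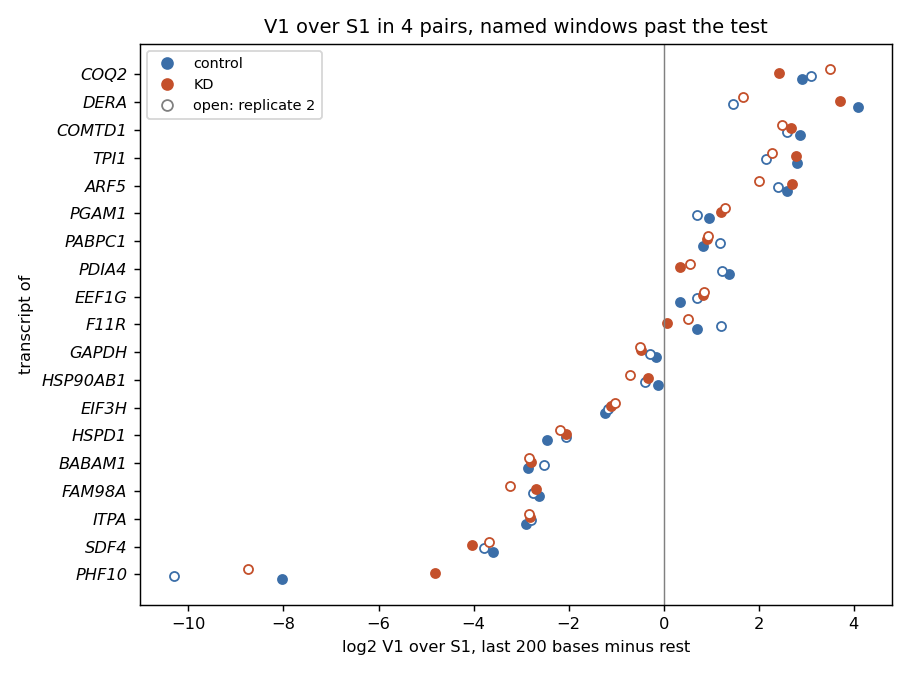
Log2 V1 over S1 in the last 200 bases minus that in the rest of the transcript (x axis) in the 4 same-numbered pairs of libraries, for 19 windows past the limma test (y axis), the 5 highest, the 5 lowest and the most covered of the gene lists. Points are pairs (blue control, orange KD; open symbols replicate 2); each window lies on the same side of 0 in all 4 pairs, from PHF10 on the left to COQ2 at the top.

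A few windows went against the dip. PIGT, like PIGS a subunit of the GPI transamidase, had, in control, 7156 and 20955 and, in KD, 17274 and 24529 S1 read starts in its window (chr20:44054686-44054885, plus strand), against 298 to 455 per 200 bases of its rest. With V1 it had 3621 to 12439 in the window against 520 to 812, and the window was on average 23.3-fold above the rest (log2 4.54 ± 1.26, SD over 8 libraries). PIGS was 15.1-fold above (3.91 ± 1.19) and CDC16, a subunit of the anaphase-promoting complex, 13.6-fold (3.77 ± 0.628), though CDC16 was at 0.84 against the 200 bases just before the window. At the other extreme were PCBP2, a poly(C)-binding protein, with 0 to 2 read starts in its window in each library against 5344 to 9424 per 200 bases of its rest, RPL22L1, a ribosomal protein paralog, with 0 to 6 against 3317 to 12150, and MTRNR2L2, a near-identical copy of mitochondrial ribosomal RNA, with 1 to 10 against 9866 to 64904. Their mean log2 ratios were -13.1, -12.7 and -12.1, sizes that in PCBP2 and RPL22L1, with 0 read starts in most libraries, are set by the pseudocount and ran to -14.7 and -14.2 with one of 0.1. Against the 200 bases just before the window the 3 ratios were 0.69, 0.07 and 1.04, and so the low density in these reached beyond the window. Reads of genes with near-identical copies or pseudogenes, among them MTRNR2L2, RPL22L1, GAPDH and EEF1G, could have been split or dropped where reads were kept only if unique. This was not tested.

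Of the gene lists, glycolysis had 6 covered windows, of which 3 were higher in V1 over S1, 1 was lower and 2 did not pass. Of all 2433 covered windows, 56.2% were called, 620 higher and 748 lower, and counts this small are given as a description beside these shares. Besides TPI1, PGAM1, phosphoglycerate mutase, was higher by 1.04 ± 0.267 (limma, adjusted p = 0.00231) but only by 0.10 without its highest base (limma, adjusted p = 0.511), while GAPDH was at -0.36 ± 0.159 (limma, adjusted p = 0.0269) and ALDOA at -0.09 ± 0.297 (limma, adjusted p = 0.530). GAPDH was at 0.05 against the 200 bases before the window, and its call was lost without any 1 of the 4 pairs. The median of the list was 0.47, against -0.09 over all covered windows, and 5 of the 6 windows had fewer read starts than the rest in all 8 libraries. In ALDOA, S1 read starts in the window went from 2039 and 3537 to 610 and 1014, and its rest fell alike, from 8704 and 5780 to 1706 and 1395 per 200 bases.

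Of 5 covered windows of chaperones, 1 was higher, 3 were lower and 1 did not pass, beside 56.2% called over all covered windows, with a median of -0.39. HSPD1, the mitochondrial chaperonin, was lower, at -2.19 ± 0.184 (limma, adjusted p = 0.000809) and at -1.36 without its highest base, with 4077 to 6741 S1 against 1207 to 3032 V1 read starts in its window. HSP90AB1, a cytosolic chaperone, was at -0.39 ± 0.236 (limma, adjusted p = 0.0428), a call that was lost without any 1 of the 4 pairs. PDIA4, a disulfide isomerase of the endoplasmic reticulum, was higher by 0.87 ± 0.497 (limma, adjusted p = 0.0039), and HSP90AA1 was at -0.03 ± 0.173 (limma, adjusted p = 0.809), which became 0.75 without its highest base. HSP90AA1 stood out in its density, with 30 to 109 read starts per library in the window against 16071 to 34275 per 200 bases of its rest, which is 357-fold lower on average.

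Of 6 covered windows of translation factors, 3 were higher, 1 was lower and 2 did not pass, beside 56.2% called over all covered windows, with a median of 0.18. PABPC1, the cytoplasmic poly(A)-binding protein, was higher by 0.97 ± 0.155 (limma, adjusted p = 0.00261) and EEF1G by 0.68 ± 0.234 (limma, adjusted p = 0.0068), while EIF3H, a subunit of initiation factor 3, was lower, at -1.14 ± 0.0945 (limma, adjusted p = 0.00165). Against the 200 bases before the window, EEF1G was at -0.21 and PABPC1 at 2.01. EEF1D, the nucleotide exchange subunit of elongation factor 1, was above its rest in all 8 libraries, with 1037 to 3123 read starts in the window against 617 to 1587 per 200 bases. None of 19 plasma protein genes had a member among the transcripts with a symbol. Of a list of 4 genes with edited 3′ UTRs, 1 had a covered window: F11R, a junctional adhesion molecule, with 8 to 36 read starts per library, was higher by 0.62 ± 0.467 (limma, adjusted p = 0.0375), and was at -0.28 against the 200 bases before the window. Its call was lost without any 1 of the 4 pairs.

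Between KD and control, few windows differed. For the ratio of window to rest, limma called 8 of the 2433 windows with S1 and 4 with V1, while over all 2978 transcripts tested 0.336% were called with S1 and 0.134% with V1. The shares of the windows were 0.329% and 0.164%, close to these. For the difference between the enzymes, V1 over S1 in the window minus the rest, limma called 0 of 2433, with 165 at an unadjusted p under 0.05. The mean of the medians differed by -0.05 between KD and control (exact permutation test of 2 against 2 pairs, p = 0.333, the smallest possible), with -0.03 within number 1 and -0.07 within number 2. Leaving out each library in turn gave differences from -0.08 to -0.02, and at least 5 read starts per base in the rest gave -0.01. Since the libraries differed in their medians by 0.24 with S1 and 0.21 with V1 between KD and control, each library was also centred on its median, after which 1 window was called with S1 and 0 with V1. The windows at an unadjusted limma p under 0.05 went the other way, from 72 with S1 and 59 with V1 before centring to 201 and 105 after it. The counts also turned on single libraries, with 0 to 11 called with S1 and 0 to 26 with V1 when each was left out, and were 25 and 9 with the replicate number as a block.

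The windows called in KD mostly held few read starts. COPA, the alpha subunit of the COPI coat, had 11 S1 read starts in each control library and 0 in each KD library (log2 -3.87, SE 0.73, limma, adjusted p = 0.00015), and it is the window called with S1 after centring (-4.11, limma, adjusted p = 0.0467). With 0 read starts in KD the size of this value is set by the pseudocount, from -2.94 with 1 to -6.14 with 0.1. The call was lost with a pseudocount of 1, against the 200 bases before the window and without either KD replicate. Its V1 read starts, 8 and 2 against 11 and 2, overlapped. HEY1, a transcriptional repressor induced by Notch, went from 699 and 1167 to 64 and 272 S1 read starts in KD (-2.63, SE 0.69, limma, adjusted p = 0.044, and 0.424 after centring), with 15 and 42 V1 read starts against 50 and 44. Its call was lost in each of the 4 fits that left out an S1 library, with values from -3.83 to -1.43. The S1 groups of HEY1 did not overlap, and its rest had 1203 to 1655 S1 read starts per 200 bases. RPL22L1 was called with both enzymes from no more than 6 read starts in a library. With S1 it had 0 and 0 in control and 0 and 6 in KD, so that the call rests on KD replicate 2, without which the value fell from 2.49 to 0.24. It was lost in 3 of the 4 fits that left out an S1 library, and in 2 of the 4 with V1. DYNC1I2, a dynein intermediate chain, was called with V1 from 1 and 0 read starts in control against 5 and 10, and lost the call in 3 of the 4 fits that left out a V1 library. Another 5 windows called with either enzyme have no symbol in the sources used here and had at most 17 read starts in a library.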

How the data were processed

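RNA-seq and Ribo-seq gave 6 libraries and PARS-seq 8, with 2 replicates for each enzyme (S1, V1) and condition (control, KD). Groups and replicate numbers came from the labels. For PARS-seq, reads were aligned by the authors to the knownCanonical transcripts of UCSC (bowtie2, local alignment), unique reads whose first bases matched were kept, and the authors deposited counts of read starts at each base of these transcripts, as whole numbers with no normalization. The depth of each sample is the total of its read starts, and intervals of counting error were not used, since reads without molecular identifiers are not independent. RPKM values of the other 6 libraries were deposited by the authors, and their depth is unknown. Not used were 4 columns with the authors' mean RPKM of PARS-seq samples.

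The window was the last 200 numbers of a transcript and the rest all numbers before it, scaled to 200 bases. Members, gene lists and tests were chosen with earlier results of these data known. Ratios were log2 values with a pseudocount of 0.5 read starts, and V1 over S1 was formed within same-numbered pairs. A mean of at least 1 read start per base in the rest was needed in every library. Limma (version 3.58.1, R 4.3.3) with an intensity trend was fitted on 2978 transcripts of more than 400 bases, with Benjamini-Hochberg adjustment over all of them and a threshold of 0.05. The design had foreseen a match by identifier and length for sequences. Few lengths matched, and the read starts of bases 201 to 1000 from the end were placed on GRCh37 with GENCODE v44lift37 by the cutting preference of each enzyme for the bases around a cut, in 3 rounds, with a correlation of at least 0.2 and a margin of 0.1 over the next best place. Placed windows are therefore an assignment, and the comparison of hexamers with the 12 bases before them was added after seeing the data. Symbols came from the supplementary tables of the study. Scripts were tested on simulated data. Calculations ran in Python 3.11.15 (scipy 1.17.1, numpy 2.4.6, pandas 2.3.3, matplotlib 3.10.9).

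Windows were named by rule: the 5 highest and 5 lowest of V1 over S1 among called windows with a symbol, the 3 highest and 3 lowest of window over rest, windows called in KD (some are not reported here), and the most covered members of each list. Same-numbered control and KD libraries deviated together with a correlation of 0.217 with S1 and 0.236 with V1 over 2 pairs, which does not establish a pairing.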

Additional observations from a re-analysis of the deposited data

How the results depend on the processing

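Only 2 libraries stand in each group, sparse windows carry few read starts, and sequences are known for 35.5% of the covered windows. Of the values that answer a comparison, under the settings other than leaving out a library, 122 stayed on their side of the threshold or moved by less than the spread between replicates, and 43 moved. Among the 122 the sign could turn near 0: V1 minus S1 of window over rest, -0.035, was 0.030 with at least 5 read starts per base in the rest and 0.0087 from summed read starts, and V1 over S1 at 61 bases, -0.060, was 0.047 with at least 5. With at least 5 read starts per base in the rest, the S1 median of window over rest was -2.95 (main value -2.35), the median of V1 over S1 was 0.010 (-0.071), its KD minus control -0.013 (-0.051), and 308 of 491 windows were called against 0. At 61 bases from the end the densities were then -4.98 with S1 and -4.66 with V1, and at 181 bases -3.93 and -2.79, with V1 over S1 at 0.66 (main value 0.41). With the 200 bases before the window as the rest, the medians were -1.22 with S1 and -1.27 with V1. From read starts summed over transcripts they were -0.97 and -0.96, with V1 over S1 at 0.0087. The summed profile gave -1.84 with S1, -2.35 with V1 and -0.51 for V1 over S1 at 61 bases, and 0.028, 0.064 and 0.036 at 181 bases. V1 over S1 at 181 bases was 0.36 with a pseudocount of 1 and 0.31 in bins of 20 bases, and the median over windows was -0.11 without the highest base. The level of log2 V1 over S1 in the window, -0.13 with libraries scaled by their totals, was 0.040 without the most covered transcript and -0.011 with totals over the rest of the members.

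The counts of windows called in KD depended on most settings, and their causes were not tested. With S1 (main count 8) they were 4 with at least 5 read starts per base, 3 with at least 10 read starts in the rest, 0 with a pseudocount of 1, 30 with one of 0.1, 0 with the 200 bases before the window as the rest, 3 without the highest base, 3 after thinning and 1 with members alone. With V1 (4) they were 0 and 31 with these pseudocounts, 0 with the 200 bases before the window and 2 without a trend. With the replicate number as a block they were 25 with S1 and 9 with V1, and 1 and 0 with centring added, an alternative chosen after seeing the data. With the block, 0 windows were called for V1 over S1 between KD and control, as without it, and it was not run for the calls against 0 or for single windows. Leaving out each replicate gave 0 to 11 windows with S1, 0 to 26 with V1 and 1079 to 1189 against 0, and KD minus control of the medians from -0.24 to 0.71 with S1 and from -0.25 to 0.68 with V1.

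The sign turned in 9 values of named windows that passed the test in either setting or carried none, and a call was lost in 33 other fits of named windows and in 31 that left out a replicate. GAPDH, HSP90AB1 and F11R lost theirs in each of the 4 fits that left out a pair, and PGAM1 at 0.096 without the highest base. With the 200 bases before the window as the rest, V1 over S1 was -0.76 in ARF5, 0.054 in GAPDH, -0.21 in EEF1G and -0.28 in F11R, and window over rest 0.69 in PCBP2, 0.066 in RPL22L1 and 1.04 in MTRNR2L2. Without the highest base, V1 over S1 was 0.052 in BABAM1 and 0.75 in HSP90AA1. Values that did not pass turned too: with the 200 bases before the window V1 over S1 was 0.35 in ALDOA, 0.36 in HSP90AA1 and 0.56 in EEF1D, and without control replicate 2 it was 0.021 in ALDOA. In HSP90AA1, at -0.032 in the main fit, it was 0.058 without control replicate 1. ALDOA passed the test at -0.41 under 1 other setting, and EEF1D moved from -0.46 to -0.67 without control replicate 1.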
